A study of Homo sapiens with 24 samples.

Results

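In all, 6 human genes are described here across NDUFS6 overexpression and knockdown in neuroblastoma cells: UBTF, CLK1, TSPEAR-AS1, TSPEAR-AS2, RAB6B and ZCCHC24. They were chosen from the measured values, as rows of the expression table with the largest change on NDUFS6 overexpression in the line SH-SY5Y or with the largest difference between the lines. The choice gave 7 of the 60564 rows, of which 6 are described, and all 6 were among the 15903 genes with enough signal to be tested. The study asked how gaining or losing NDUFS6, an accessory subunit of mitochondrial complex I, changes the transcriptome of the neuroblastoma lines SH-SY5Y and SK-N-BE(2). The 8 groups of 3 libraries were, in each line, cells with a lentivirus carrying the full-length human NDUFS6 coding sequence (overexpression), cells with an empty vector (overexpression control), cells with a lentiviral short hairpin RNA against NDUFS6 (knockdown), and cells with another empty vector (knockdown control). All 24 libraries came from puromycin-selected stable cultures in minimum essential medium, and the labels place them in 1 batch. Each group's 3 libraries are labelled biological replicates. No source used here says that each had its own infection, so the p-values reflect library-to-library spread that could be technical.

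The members belong to several layers of nuclear and membrane biology. UBTF encodes the upstream binding factor, an HMG-box protein that binds ribosomal DNA and helps assemble RNA polymerase I. CLK1 encodes a nuclear kinase that phosphorylates SR proteins, the splicing factors rich in serine and arginine. RAB6B encodes a neuron-enriched form of RAB6, a small GTPase of the Golgi that recruits motor proteins and tethers to transport vesicles. TSPEAR-AS1 and TSPEAR-AS2 are long noncoding RNAs transcribed from inside the gene TSPEAR on the opposite strand, and ZCCHC24 encodes a zinc-finger protein of the CCHC class.

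In GENCODE release 29 (hg38), UBTF lies at chr17:44205033-44221626 on the minus strand and CLK1 at chr2:200853009-200864744 on the minus strand. TSPEAR-AS1 (chr21:44506807-44516575) and TSPEAR-AS2 (chr21:44517216-44525952) follow each other on the plus strand. RAB6B lies at chr3:133824239-133895836 and ZCCHC24 at chr10:79382325-79445627, both on the minus strand. Exons of TSPEAR share 320 bases, or 13.6%, of the exonic sequence of TSPEAR-AS1, and 16 bases of that of TSPEAR-AS2. Exons of SRPRB, on the other strand, share 381 bases (6.34%) of the exonic sequence of RAB6B. The libraries were strand-specific, but no source used here says whether strand was used when fragments were assigned to genes, so reads of these overlapping genes cannot be told apart.

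The 250 bases before the transcript start are shown for 5 members: the pair that was higher with overexpression, the member whose direction turned with knockdown, and both neighbouring antisense RNAs. For a gene with several starts the first listed window is shown, and RefSeq starts can differ from those of GENCODE. The sequences come from RefSeq promoter windows on GRCh38.p14, in which all 6 members matched. They run 5′ to 3′ on the strand of the gene, and capitals mark matches on either strand to the GC box (GGGCGG), the CCAAT box (CCAAT) and a CRE-like site (TGCGTCA).
UBTF (chr17:44220883-44221132, minus strand): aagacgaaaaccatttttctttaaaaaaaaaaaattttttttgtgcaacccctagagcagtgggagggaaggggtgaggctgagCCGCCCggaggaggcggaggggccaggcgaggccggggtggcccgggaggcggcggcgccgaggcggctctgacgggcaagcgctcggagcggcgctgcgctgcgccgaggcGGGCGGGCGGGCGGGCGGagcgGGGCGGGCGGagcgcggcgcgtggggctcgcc
CLK1 (chr2:200864659-200864908, minus strand): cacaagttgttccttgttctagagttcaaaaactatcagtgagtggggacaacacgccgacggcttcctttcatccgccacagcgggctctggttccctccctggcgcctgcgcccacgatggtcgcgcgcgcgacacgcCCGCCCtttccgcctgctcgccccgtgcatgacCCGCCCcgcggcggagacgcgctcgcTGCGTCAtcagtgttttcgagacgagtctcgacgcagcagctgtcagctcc
ZCCHC24 (chr10:79445625-79445874, minus strand): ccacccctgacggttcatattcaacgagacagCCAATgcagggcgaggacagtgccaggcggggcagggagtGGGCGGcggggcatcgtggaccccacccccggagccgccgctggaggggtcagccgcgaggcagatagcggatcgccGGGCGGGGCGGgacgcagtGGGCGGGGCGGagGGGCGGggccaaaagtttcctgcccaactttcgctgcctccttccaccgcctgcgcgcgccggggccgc
TSPEAR-AS1 (chr21:44505794-44506043, plus strand): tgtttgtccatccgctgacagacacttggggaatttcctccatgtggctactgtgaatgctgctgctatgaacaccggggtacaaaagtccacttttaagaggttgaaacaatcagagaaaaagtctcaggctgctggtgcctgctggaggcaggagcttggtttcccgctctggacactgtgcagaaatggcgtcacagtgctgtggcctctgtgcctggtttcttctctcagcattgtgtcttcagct
TSPEAR-AS2 (chr21:44516965-44517214, plus strand): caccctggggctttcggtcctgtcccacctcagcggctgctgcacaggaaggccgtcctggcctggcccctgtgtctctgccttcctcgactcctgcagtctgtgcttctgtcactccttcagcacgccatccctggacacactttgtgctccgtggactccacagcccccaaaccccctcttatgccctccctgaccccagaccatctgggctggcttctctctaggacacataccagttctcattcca
The UBTF window held 7 GC boxes, some of which overlap, and the ZCCHC24 window held 6 GC boxes and 1 CCAAT box. The CLK1 window held 2 GC boxes and 1 CRE-like site, while the windows of both TSPEAR antisense RNAs held no match to these 3 motifs. Among 35116 RefSeq promoter windows of the same length, 42.6% held a GC box, 32% a CCAAT box and 2.09% the CRE-like site. The other motifs searched on both strands, a full CRE (TGACGTCA), an E-box (CACGTG), an AP-1 site (TGACTCA) and a TATA box (TATAAA), had no match in these 5 windows and stood in 1.65%, 6.34%, 4.20% and 10.7% of all windows. The windows of UBTF, CLK1 and ZCCHC24 were 70.8%, 64.4% and 73.2% G and C, against 51.2% for TSPEAR-AS1 and 61.2% for TSPEAR-AS2.

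Levels are given in the deposited unit, FPKM, in which the authors divided fragment numbers by transcript length and library size. Read depth is unknown, so precision is judged from how far the 3 libraries of each group lie apart. The FPKM total of a library ranged from 249708 to 276091, and 12607 to 14018 genes reached 1 FPKM. NDUFS6 itself moved as the labels say in all 4 comparisons, by 19.0-fold in SH-SY5Y overexpression cells (214, 211 and 199 FPKM, against 10.2, 11.5 and 11.2 FPKM in the control) but by only 1.34-fold in SK-N-BE(2) overexpression cells. Knockdown left 4.02 ± 0.939 FPKM in SH-SY5Y, against 11.5 ± 0.566 FPKM in its control, and 1.33 ± 0.261 FPKM in SK-N-BE(2), against 11.2 ± 1.63 FPKM in its control (SD, n = 3 each). The adrenergic neuroblastoma markers PHOX2A, GATA3, HAND2 and ISL1 were present in both lines, whereas TH was at most 0.278 FPKM in SH-SY5Y libraries. Summed over 9 markers of stromal, immune, epithelial, endothelial and Schwann cells, FPKM lay at 4.82 to 6.07 in SH-SY5Y overexpression libraries, against 5.88 to 7.05 in their controls, and at 69.5 to 70.4 in SH-SY5Y knockdown libraries, against 17.6 to 19.5 in their controls. In SK-N-BE(2) the same sum lay at 155 to 178 with overexpression, against 130 to 137 in the control, and at 81.4 to 98.5 with knockdown, against 89.5 to 94.1 in the control. The 6 adrenergic markers (with TH and DBH) summed to 731 to 781 FPKM in SH-SY5Y overexpression, against 789 to 807 in the control, and to 541 to 558 with knockdown, against 697 to 704. In SK-N-BE(2) they summed to 530 to 628 FPKM with overexpression, against 508 to 543 in the control, and to 246 to 318 with knockdown, against 490 to 500.

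In SH-SY5Y overexpression cells, UBTF and CLK1 were higher than in the empty vector control, and the other 4 members were lower. The comparison that chose these genes is given as a description, with no test. UBTF measured 33.2, 34.5 and 35.3 FPKM in overexpression libraries, against 12.9, 13.3 and 13.6 FPKM in control libraries, a ratio of 2.58. CLK1 measured 16.5, 16.3 and 16.5 FPKM with overexpression, against 8.23, 7.93 and 8.33 FPKM in the control, a ratio of 2.01. For both genes every overexpression library stood above every control library.

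The 4 lower members stood at 11.8 FPKM or less in every library of the comparison. TSPEAR-AS1 measured 2.33, 2.73 and 2.06 FPKM in SH-SY5Y overexpression libraries, against 11.8, 9.72 and 9.89 FPKM in the controls, 4.41-fold lower. TSPEAR-AS2 measured 1.88, 1.86 and 1.49 FPKM, against 9.64, 8.07 and 7.17 FPKM in the controls, 4.75-fold lower. The 2 antisense RNAs thus stood at similar levels in each group and were, with ZCCHC24, the lowest members after overexpression. ZCCHC24 measured 2.41, 2.05 and 2.19 FPKM with overexpression, against 6.72, 7.04 and 6.80 FPKM in the control, 3.09-fold lower. RAB6B measured 3.49, 3.25 and 3.23 FPKM with overexpression, against 11.1, 9.61 and 9.87 FPKM in the control, 3.07-fold lower. No member's overexpression and control libraries overlapped in SH-SY5Y. Since this comparison chose the members, that carries no further information, and the share of all genes without overlap was not counted.

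On the log2(FPKM + 1) scale, on which limma was fitted and which understates the change of low genes, the differences in SH-SY5Y overexpression minus control were 1.31 for UBTF, 0.93 for CLK1, -1.76 for TSPEAR-AS1, -1.75 for TSPEAR-AS2, -1.37 for RAB6B and -1.29 for ZCCHC24. By p among 15903 tested genes the members ranked between 2 (ZCCHC24) and 17 (RAB6B), and by size between 6 (TSPEAR-AS1) and 111 (CLK1). The genes next to RAB6B by p were HNRNPR at rank 16, with a difference of 0.54, and FAM131B at rank 18, with -0.90, and several other genes of this range are not members. In this comparison 32.6% of tested genes were called, meaning a Benjamini-Hochberg adjusted p under 0.05, 15.4% higher and 17.2% lower. Since the rule used this contrast, the members' place in it carries no further information.

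Both SH-SY5Y empty vector controls gave the same direction for all 6 members. Against the knockdown control, which holds other libraries, the differences of the overexpression cells were 1.79 for UBTF, 1.02 for CLK1, -1.64 for TSPEAR-AS1, -1.69 for TSPEAR-AS2, -1.26 for RAB6B and -1.87 for ZCCHC24 (log2). The controls themselves were not alike for UBTF and ZCCHC24. The overexpression control minus the knockdown control was 0.48 for UBTF and -0.58 for ZCCHC24, with no overlap of libraries, while the libraries of the other 4 members overlapped between the controls. The share of all genes without overlap between these controls was not counted. The size of the UBTF and ZCCHC24 differences therefore depended on the control, and their direction did not.

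**Figure D1:**
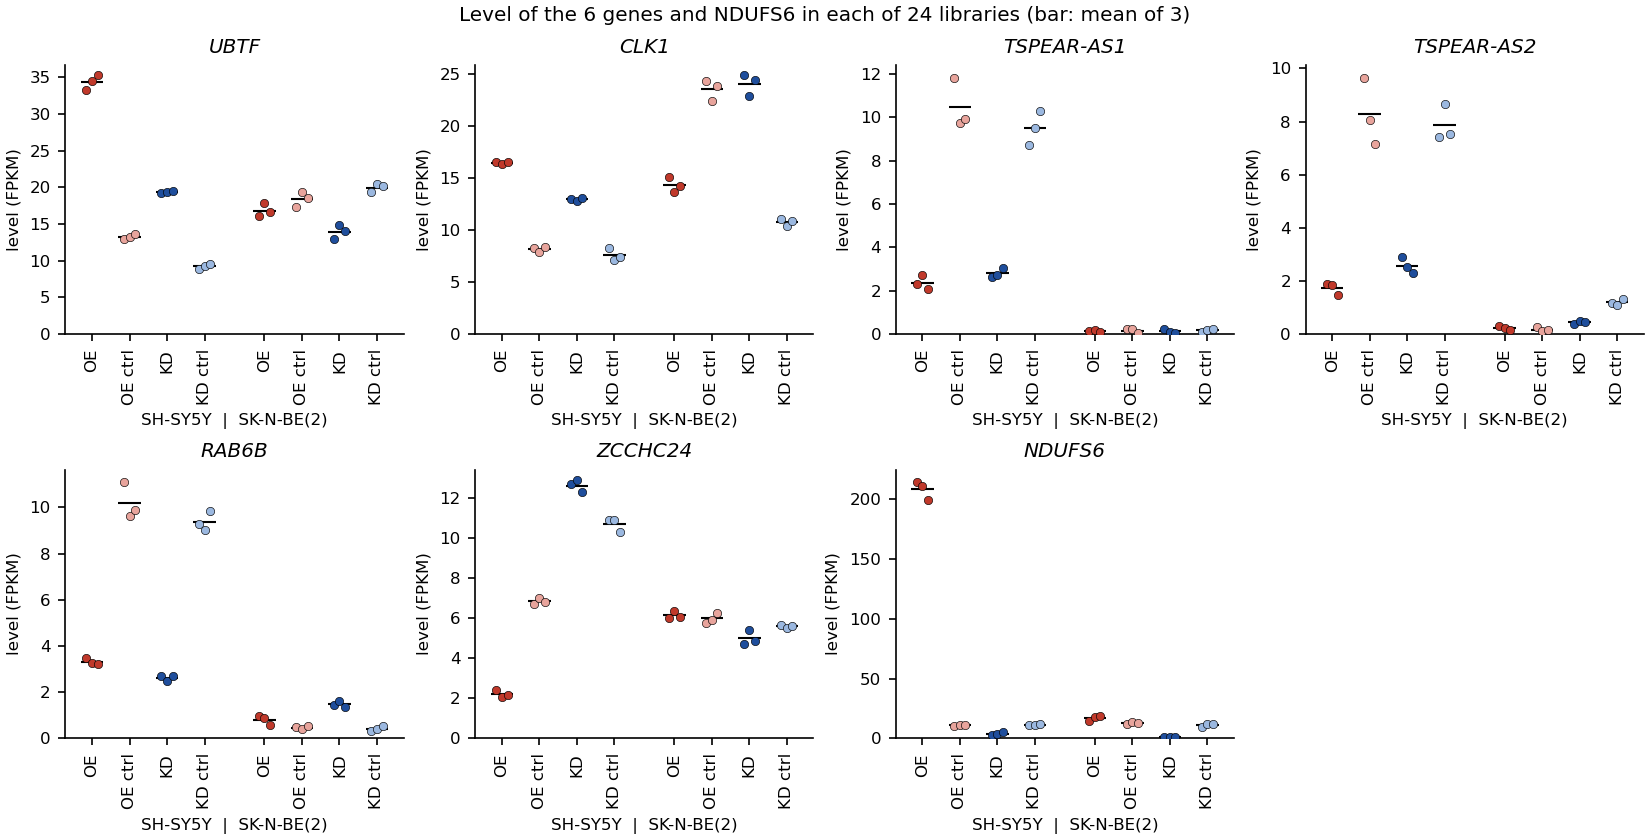
Level in FPKM of the 6 genes and NDUFS6 in each of the 24 libraries, by group (points: libraries; bars: mean of 3; OE: overexpression; KD: knockdown; ctrl: empty vector control; the left 4 groups are SH-SY5Y and the right 4 SK-N-BE(2)). In SH-SY5Y, UBTF and CLK1 stand higher, and both TSPEAR antisense RNAs and RAB6B lower, in both construct groups than in both controls, whereas ZCCHC24 is low with overexpression (2.22 FPKM) and high with knockdown (12.6 FPKM).

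The knockdown of NDUFS6 in SH-SY5Y gave a comparison with no overexpression library in it, although its control libraries may have served where the choice weighed levels between the lines. All 6 members passed the test there, against 56% of all tested genes (26.3% higher, 29.6% lower). Of the 6, 5 moved in the direction they had with overexpression, although NDUFS6 was lowered in one and raised in the other. Among the 2441 other genes called higher with overexpression in SH-SY5Y, 46.9% were also called higher and 22.2% lower with knockdown, and among the 2738 called lower, 53.4% were also called lower and 18.6% higher. Among the 27 higher genes at least as large in log2 difference as CLK1, 66.7% were called higher and 3.7% lower with knockdown, and among the 60 lower genes at least as large as CLK1 in size, 66.7% were called lower and 0 higher. The shared direction was thus common among genes of this size, and no feature of the 6 members alone.

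UBTF rose to 19.2, 19.3 and 19.5 FPKM in SH-SY5Y knockdown libraries, against 8.84, 9.31 and 9.53 FPKM in the knockdown control, a log2 difference of 0.99 ± 0.0492 (SE; limma adjusted p = 9.18e-13). CLK1 rose to 13.0, 12.8 and 13.1 FPKM, against 8.24, 7.08 and 7.43 FPKM in the control (0.71 ± 0.0477, limma adjusted p = 1.1e-10). Both genes were less high with knockdown than with overexpression, and UBTF libraries of the 2 construct groups did not overlap (means 34.3 ± 1.04 FPKM with overexpression and 19.3 ± 0.171 FPKM with knockdown, SD, n = 3 each).

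Both antisense RNAs and RAB6B fell with knockdown in SH-SY5Y. TSPEAR-AS1 measured 2.65, 2.74 and 3.05 FPKM in knockdown libraries, against 8.72, 9.50 and 10.3 FPKM in controls (-1.46 ± 0.0909, limma adjusted p = 2.97e-11). TSPEAR-AS2 measured 2.92, 2.54 and 2.29 FPKM, against 7.42, 8.67 and 7.53 FPKM in controls (-1.31 ± 0.092, limma adjusted p = 1.97e-10). RAB6B measured 2.72, 2.48 and 2.70 FPKM, against 9.3, 9 and 9.85 FPKM in controls (-1.52 ± 0.0758, limma adjusted p = 1.02e-12). For RAB6B the knockdown libraries lay below even the overexpression libraries, and for TSPEAR-AS1 the libraries of the 2 construct groups overlapped.

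ZCCHC24 was the member whose direction turned. It rose with knockdown, to 12.7, 12.9 and 12.3 FPKM, against 10.9, 10.9 and 10.3 FPKM in the knockdown control (0.22 ± 0.0482, limma adjusted p = 0.000678), while overexpression cells stood at 2.05 to 2.41 FPKM. Its level was 5.69-fold lower in overexpression than in knockdown cells, the widest gap between the constructs among the 6 members in SH-SY5Y. The overexpression control, at 6.86 ± 0.164 FPKM, lay between them, below the knockdown control at 10.7 ± 0.370 FPKM (SD, n = 3 each).

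Against the other empty vector control of SH-SY5Y the knockdown differences kept their direction and their call in all 6 members, with 0.51 for UBTF, 0.61 for CLK1, -1.58 for TSPEAR-AS1, -1.37 for TSPEAR-AS2, -1.62 for RAB6B and 0.79 for ZCCHC24 (log2). In these knockdown libraries some markers of other cells were also higher. LUM, a collagen-binding proteoglycan of stroma, averaged 34.8 FPKM, against 5.89 FPKM in the control, DCN averaged 9.30 FPKM, against 0.226 FPKM, COL1A1 14.9 FPKM, against 9.07 FPKM, and CD68 10.1 FPKM, against 1.89 FPKM. The immune marker PTPRC stayed at or under 0.119 FPKM, the Schwann cell marker SOX10 at or under 0.0641 FPKM, and the endothelial marker PECAM1 was listed at 0 in the knockdown libraries. S100B, another Schwann cell marker, averaged 0.188 FPKM, against 0.824 FPKM in the control. Among the adrenergic markers DBH averaged 23.1 FPKM with knockdown, against 129 FPKM in the control, PHOX2A 118 FPKM, against 181 FPKM, and ISL1 60.6 FPKM, against 35.4 FPKM. The part of these marker differences in the members' results was not tested, and in bulk RNA fewer cells of a type cannot be told apart from less RNA per cell.

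**Figure D2:**
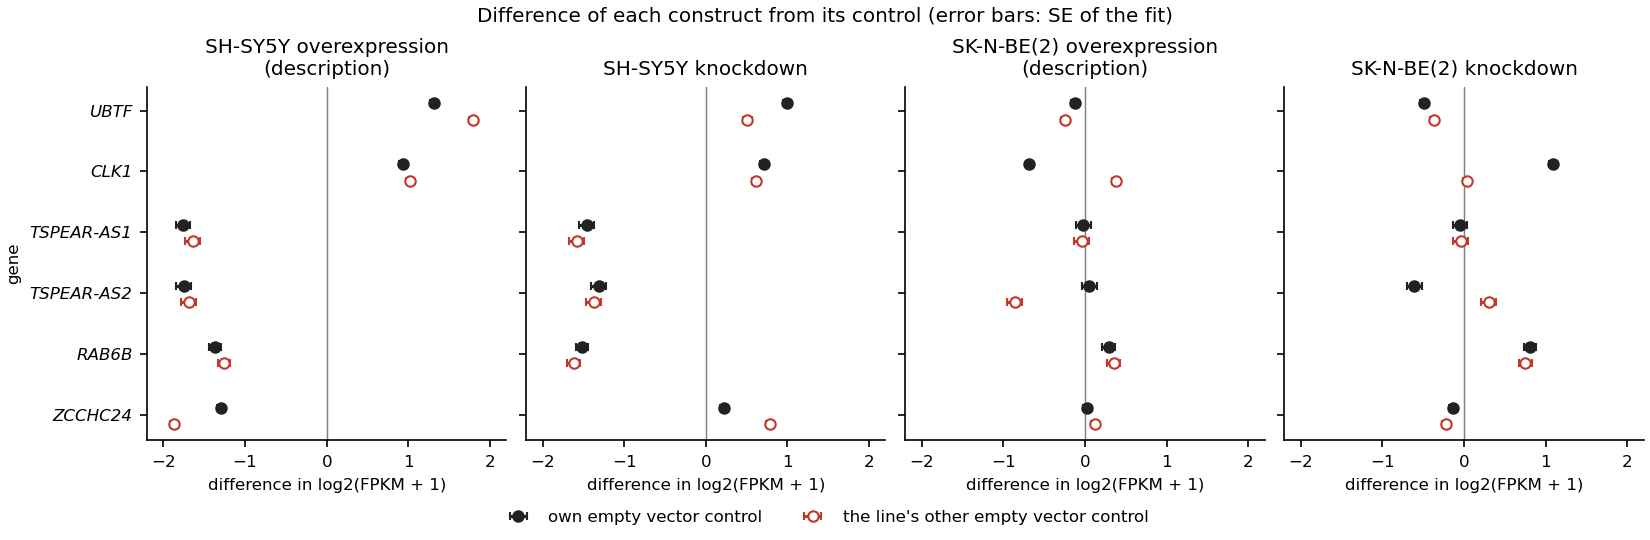
Difference in log2(FPKM + 1) of each construct from its own empty vector control (filled) and from the other control of the same line (open), for the 6 genes in SH-SY5Y and SK-N-BE(2); error bars are the standard error of the fit, and overexpression panels are descriptions with no test. In SH-SY5Y each gene lies on 1 side of 0 with both controls, whereas in SK-N-BE(2) CLK1 with overexpression (-0.68 and 0.38) and TSPEAR-AS2 with knockdown (-0.61 and 0.30) change side with the control.

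In SK-N-BE(2) 3 of the members were low in both controls. TSPEAR-AS1 stood between 8.72 and 11.8 FPKM in the 6 SH-SY5Y control libraries, against 0.0404 to 0.246 FPKM in all 12 SK-N-BE(2) libraries. RAB6B averaged 9.38 ± 0.435 FPKM in the SH-SY5Y knockdown control, against 0.413 ± 0.106 FPKM in that of SK-N-BE(2), a ratio of 22.7, and the overexpression controls gave a ratio of 21.7 (10.2 ± 0.792 FPKM in SH-SY5Y, against 0.469 ± 0.0627 FPKM in SK-N-BE(2)). In SK-N-BE(2) TSPEAR-AS2 averaged 0.175 ± 0.0790 FPKM in the overexpression control but 1.2 ± 0.105 FPKM in the knockdown control (SD, n = 3 each). The other 3 members were expressed in both lines, with UBTF and CLK1 lower and ZCCHC24 higher in SH-SY5Y controls than in the matching SK-N-BE(2) controls. Since the rule may have used differences between lines, these levels are given with no test.

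Overexpression in SK-N-BE(2) moved the members little or the other way, as a description. UBTF measured 16.1, 17.8 and 16.6 FPKM in overexpression libraries, against 17.3, 19.3 and 18.5 FPKM in the control, and the groups overlapped (-0.12, log2). ZCCHC24 (6.17 ± 0.192 FPKM, against 6 ± 0.24 FPKM), TSPEAR-AS1 and TSPEAR-AS2 also overlapped between the groups, but TSPEAR-AS2 was lower than in the other control (-0.86, log2). CLK1 measured 15.1, 13.6 and 14.2 FPKM with overexpression, against 24.3, 22.4 and 23.8 FPKM in the control (-0.68, log2), opposite to SH-SY5Y. Against the knockdown control of the line, at 11, 10.4 and 10.9 FPKM, the CLK1 difference turned to 0.38, so its direction there rests on which empty vector is used. RAB6B stood at 0.971, 0.868 and 0.588 FPKM, against 0.489, 0.399 and 0.520 FPKM in the control (0.29, log2). In this comparison 29.7% of tested genes were called, and the difference of the overexpression response between lines was called in 36.8%. NDUFS6 gained far less in SK-N-BE(2) than in SH-SY5Y, and neither the part of that gap nor that of the marker sums in these differences was tested.

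Knockdown in SK-N-BE(2) called 5 of the 6 members, against 55.7% of all tested genes (27.4% higher, 28.3% lower). UBTF fell to 12.9, 14.9 and 14.1 FPKM, against 19.3, 20.4 and 20.2 FPKM in the control (-0.49 ± 0.0492, limma adjusted p = 5.03e-08), and fell against the other control too (-0.37). RAB6B rose to 1.46, 1.62 and 1.36 FPKM, against 0.306, 0.414 and 0.518 FPKM in the control (0.81 ± 0.0758, limma adjusted p = 1.76e-08), and by 0.75 against the other control. Both genes thus moved opposite to SH-SY5Y. SRPRB, whose exons share 381 bases with those of RAB6B, was higher in the same knockdown libraries (14.9 FPKM, against 9.82 FPKM). The part of SRPRB reads in the low RAB6B values was not tested. Among the adrenergic markers in the same knockdown libraries, HAND2 averaged 80 FPKM, against 209 FPKM in the control, and ISL1 17.4 FPKM, against 44.4 FPKM. PHOX2A, GATA3 and DBH were lower too, but TH was higher, at 55.9 FPKM, against 29 FPKM. The part of these markers in the members' results was not tested.

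CLK1 rose to 24.9, 22.8 and 24.4 FPKM in SK-N-BE(2) knockdown cells, against 11, 10.4 and 10.9 FPKM in the knockdown control (1.09 ± 0.0477, limma adjusted p = 2.15e-13). The overexpression control of the line, however, stood at 22.4 to 24.3 FPKM, and against it the difference was 0.03 (limma adjusted p = 0.663). TSPEAR-AS2 fell to 0.394, 0.478 and 0.465 FPKM, against 1.19, 1.10 and 1.31 FPKM in the knockdown control (-0.61 ± 0.092, limma adjusted p = 1.19e-05), but was higher than in the overexpression control (0.30, limma adjusted p = 0.0105). The results of these 2 genes in SK-N-BE(2) depend on the empty vector, since the controls differed by 1.06 for CLK1 and -0.91 for TSPEAR-AS2 (overexpression control minus knockdown control, log2).

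ZCCHC24 was 4.72, 5.42 and 4.86 FPKM in SK-N-BE(2) knockdown libraries, against 5.67, 5.54 and 5.6 FPKM in the control (-0.14 ± 0.0482, limma adjusted p = 0.0184), a call lost without knockdown library 1 or 3 or control library 1 (limma adjusted p = 0.0973, 0.065 and 0.0536). TSPEAR-AS1 was too low in this line to show a fall and did not pass the test, at 0.137 ± 0.0933 FPKM with knockdown, against 0.179 ± 0.0626 FPKM in the control (SD, n = 3 each; limma adjusted p = 0.647).

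An interaction term, SH-SY5Y minus SK-N-BE(2), compared the knockdown responses of the lines. It passed in 5 of the 5 members that averaged at least 1 FPKM in SK-N-BE(2) knockdown cells or their control, against 55.8% of tested genes. RAB6B reached this level only with knockdown (1.48 FPKM) and TSPEAR-AS2 only in the control (1.2 FPKM). For these genes the filter thus drew on the groups compared, and the share of all tested genes was taken without it. The choice of members may have weighed differences between the lines, so p-values of this term may not be independent of that choice. The term was largest for RAB6B (-2.33 ± 0.107, limma adjusted p = 4.55e-13) and UBTF (1.48 ± 0.0696, limma adjusted p = 5.98e-13), which moved oppositely in the lines. Reads of RAB6B and the overlapping SRPRB cannot be told apart here, and the part of SRPRB in the RAB6B value was not tested. The value for TSPEAR-AS1, -1.41, is given with no test, since the gene had no room to fall in SK-N-BE(2), and RAB6B and TSPEAR-AS2 had little. Smaller differences were found for TSPEAR-AS2 (-0.70, limma adjusted p = 0.000122), CLK1 (-0.38, limma adjusted p = 7.44e-05) and ZCCHC24 (0.36, limma adjusted p = 0.000163). With the other controls the CLK1 difference turned to 0.58 (limma adjusted p = 3.74e-07), and the sizes changed to 0.88 for UBTF, -1.67 for TSPEAR-AS2 and 1.02 for ZCCHC24, while RAB6B stayed largest at -2.38. The TSPEAR-AS2 difference missed the threshold with a smaller pseudocount (-0.32 with 0.1, limma adjusted p = 0.326).

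Ordered by level, UBTF was highest in SH-SY5Y overexpression cells at 34.3 FPKM, followed by SK-N-BE(2) knockdown controls, SH-SY5Y knockdown cells and SK-N-BE(2) overexpression controls, at 20.0, 19.3 and 18.4 FPKM, whose neighbours in the order overlapped. It was lowest in SH-SY5Y knockdown controls at 9.22 FPKM. CLK1 was highest in SK-N-BE(2) knockdown cells and overexpression controls, which overlapped at 24 and 23.5 FPKM, and lowest in the SH-SY5Y controls, which overlapped at 8.17 and 7.58 FPKM. ZCCHC24 was highest in SH-SY5Y knockdown cells at 12.6 FPKM and lowest in SH-SY5Y overexpression cells at 2.22 FPKM. For TSPEAR-AS1 the SH-SY5Y construct groups overlapped with each other, as did the SH-SY5Y controls, and all 4 SK-N-BE(2) groups.

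The TSPEAR antisense RNAs did not move alone on chromosome 21. Of the genes within 300 kb of TSPEAR-AS1 at lower coordinates, with TSPEAR itself, 10 were tested, of which 6 fell and 1 rose with overexpression in SH-SY5Y and 7 fell and 3 rose with knockdown. TSPEAR is among those that fell, and where exons overlap its reads cannot be told apart from those of the antisense RNAs. Over all tested genes 15.4% were called higher and 17.2% lower with overexpression, and 26.3% higher and 29.6% lower with knockdown. At higher coordinates 2 genes were tested, of which UBE2G2 fell and SUMO3 rose with overexpression (-0.11 and 0.18), and 1 fell with knockdown. In SK-N-BE(2) the 10 genes at lower coordinates reached at most 3.9 FPKM in any library. Of them 2 rose and none fell with overexpression, where 12.9% of all tested genes were called higher and 16.8% lower. With knockdown 5 fell and none rose, where 28.3% of all tested genes were called lower and 27.4% higher. Of the 27 genes listed at lower coordinates the others stayed under the filter. The locus counts were not made against the other empty vector controls. AP001065.1, a long intergenic RNA whose end lies 16.5 kb before the start of TSPEAR-AS1, averaged 5.08 FPKM with overexpression, against 20.5 FPKM in the control (-1.82, limma adjusted p = 5.45e-11). With knockdown it averaged 3.35 FPKM, against 32 FPKM in the control (-2.94, limma adjusted p = 8.61e-16). Its neighbour AP001065.3 fell by 0.93 with overexpression and by 2.52 with knockdown on the log2 scale, to 0.796 FPKM against 2.41 FPKM and to 0.414 FPKM against 7.04 FPKM.

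TSPEAR, which encodes a secreted protein with EAR repeats and surrounds both antisense RNAs, fell to 0.798 FPKM with overexpression, against 2.11 FPKM in the SH-SY5Y control (-0.79, limma adjusted p = 5.44e-08). With knockdown it fell to 0.628 FPKM, against 2.51 FPKM in the control (-1.11, limma adjusted p = 2.56e-11). Exons of TSPEAR and TSPEAR-AS1 share 320 bases, and the part of antisense reads in these low TSPEAR values was not tested. LRRC3, a leucine-rich repeat gene farther out, fell by 0.56 and 0.68 on the log2 scale with overexpression and knockdown. AP001065.2 also fell in both (-0.75 and -0.32), and the mitochondrial pseudogene MTND6P21, whose reads may be shared with mitochondrial copies, was -0.46 with knockdown and -0.22 with overexpression, with calls that changed with the control. At a greater distance the directions were mixed. PFKL, the liver-type phosphofructokinase, fell in both (-0.31 and -0.39), and C21orf2 rose in both (0.54 and 0.45), though not against the other control with knockdown (0.18, limma adjusted p = 0.0714). UBE2G2, a ubiquitin-conjugating enzyme beyond the far end of TSPEAR, changed by -0.11 in both, and both calls were lost under other settings, as with TPM scaling for overexpression (-0.08, limma adjusted p = 0.163) and the other control for knockdown (-0.07, limma adjusted p = 0.11). The keratin-associated protein genes KRTAP10 and KRTAP12, which lie inside TSPEAR, were listed at or near 0 in all groups. In SK-N-BE(2), AP001065.1 and AP001065.3 were at or under 0.0172 FPKM on average in every group.

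**Figure D3:**
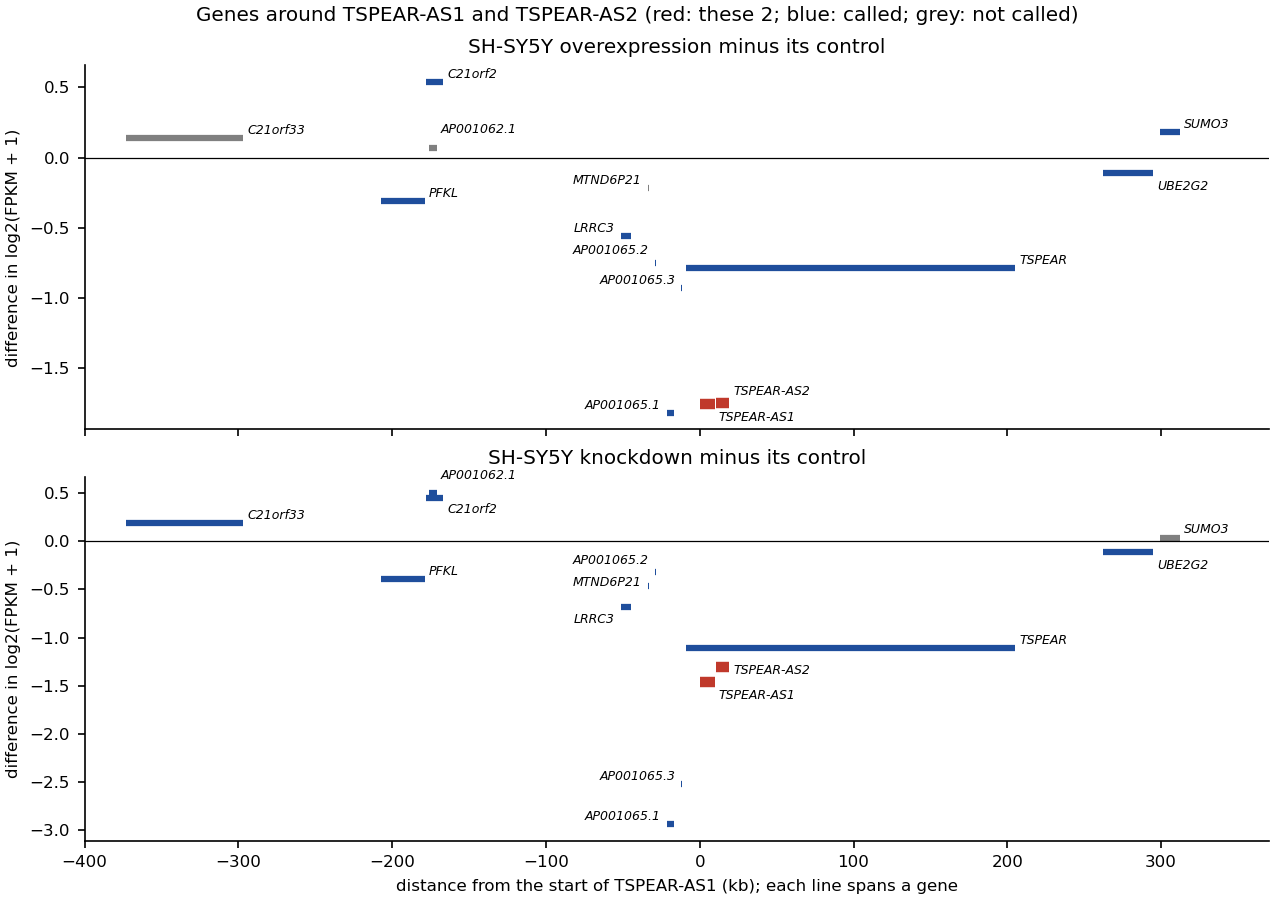
Difference in log2(FPKM + 1) from the own empty vector control in SH-SY5Y for the tested genes around TSPEAR-AS1, with each line spanning a gene along the distance from the start of TSPEAR-AS1 in kb (red: TSPEAR-AS1 and TSPEAR-AS2; blue: adjusted p under 0.05; grey: not called; for the 2 red genes the overexpression panel is a description). AP001065.1 is as low as the antisense RNAs with overexpression (-1.82) and lower with knockdown (-2.94), while C21orf2 is higher in both (0.54 and 0.45).

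The nearest tested neighbours of the other members moved in mixed directions. ATXN7L3, next to UBTF, rose by 0.18 with overexpression and 0.45 with knockdown in SH-SY5Y (log2), and RUNDC3A on its other side fell by 0.25 and 1.79, the first of which turned to 0.10 against the other control. BZW1, next to CLK1, rose by 0.26 with overexpression, and its rise of 0.18 with knockdown was -0.02 against the other control. PPIL3, also next to CLK1, did not pass in either (-0.06 and 0.13) but passed in both against the other control (-0.15 and 0.22, limma adjusted p = 0.0499 and 0.00525). SRPRB, which overlaps RAB6B, rose by 0.34 with overexpression in SH-SY5Y, opposite to RAB6B, and RYK passed only with knockdown (0.45). PPIF, next to ZCCHC24, fell by 1.07 with knockdown and did not pass with overexpression (0.06), where it passed against the other control (0.43, limma adjusted p = 6.65e-06). EIF5AL1 passed in neither, and passed with knockdown against the other control (-0.25, limma adjusted p = 0.0425). In SK-N-BE(2) knockdown SRPRB rose by 0.55, in the same direction as RAB6B, with 14.9 FPKM, against 9.82 FPKM in the control.

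Around UBTF, other genes of RNA polymerase I transcription moved by smaller amounts than UBTF in SH-SY5Y, where UBTF was chosen for its size with overexpression. In SK-N-BE(2) some of them moved by more than UBTF. Of 19 tested, 11 rose and 2 fell with overexpression in SH-SY5Y, with a median difference of 0.22, against -0.01 over all tested genes (log2), of which 15.4% were called higher and 17.2% lower. With knockdown in SH-SY5Y 5 rose and 7 fell, with a median of 0.03, where 26.3% of all tested genes were called higher and 29.6% lower, so 12 of 19 called is near the share of all genes. In SK-N-BE(2), where 29.7% of all tested genes were called with overexpression and 55.7% with knockdown, 4 rose and 5 fell with overexpression, and 4 rose and 8 fell with knockdown, with medians of -0.06 and -0.13. TAF1D, a subunit of the promoter selectivity factor SL1, rose to 16.5 FPKM with overexpression in SH-SY5Y, against 12.6 FPKM (0.37, limma adjusted p = 2.09e-06), but its difference from the other control was 0.00 (limma adjusted p = 0.951). NCL, the abundant nucleolar protein nucleolin, rose to 136 FPKM, against 108 FPKM (0.32), TWISTNB, a polymerase I subunit, rose by 0.27, and RRN3, the initiation factor that recruits polymerase I, rose by 0.30. BAZ2A, a subunit of the complex that silences ribosomal DNA, fell with overexpression (-0.33) and with knockdown (-0.70), and SMARCA5, its remodelling partner, rose by 0.11 with overexpression and fell by 0.26 with knockdown. Against the other control 11 rose and 2 fell with overexpression, though TAF1D and TAF1C were no longer among those called, whereas the knockdown median in SH-SY5Y turned to -0.13 there, with 3 risen and 8 fallen, and to -0.06 with values scaled to a fixed sum.

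Around CLK1, the other CLK kinases and the SR protein kinases and targets numbered 21, of which 20 were tested. With overexpression in SH-SY5Y 11 rose and 3 fell (median 0.16), and with knockdown 10 rose and 5 fell (median 0.16), where 32.6% and 56% of all tested genes were called in either direction. SRSF1 rose to 117 FPKM with overexpression, against 81.4 FPKM in the control (0.52, limma adjusted p = 1.46e-09), SRSF2 to 126 FPKM, against 87.8 FPKM (0.52, limma adjusted p = 6.55e-08), and TRA2A to 41.2 FPKM, against 28.2 FPKM (0.53, limma adjusted p = 1.17e-07). These genes encode splicing factors that CLK kinases phosphorylate or that act with them. With knockdown SRSF8 rose by 0.81 and SRSF6 by 0.49, the second of which was 0.00 against the other control, while SRPK1, another SR protein kinase, fell by 0.58 with knockdown. With overexpression SRPK1 was -0.12, a call lost against the other control (-0.04, limma adjusted p = 0.342) and with TPM scaling (-0.08, limma adjusted p = 0.205). Against the other control the knockdown picture turned, to 5 risen and 9 fallen with a median of -0.07, and SRSF1 and SRSF2 then differed by -0.36 and -0.18, while the overexpression counts were 12 risen and 1 fallen. In SK-N-BE(2) 2 rose and 9 fell with overexpression and 9 rose and 5 fell with knockdown. Of all tested genes 29.7% and 55.7% were called in these comparisons. Against the other control of that line the counts were 6 risen and 4 fallen with overexpression and 7 risen and 6 fallen with knockdown.

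The partners of RAB6B showed no single direction. Of 13 tested RAB6 isoforms, partners and effectors, 2 rose and 3 fell with overexpression in SH-SY5Y, and 2 rose and 3 fell with knockdown, against 32.6% and 56% of all tested genes called in either direction, so the knockdown share was below that of all genes. Against the other control these counts were 2 risen and 7 fallen with overexpression and 4 risen and 4 fallen with knockdown. RAB6A, the ubiquitous isoform, stood at 21.8 FPKM with overexpression, against 24.7 FPKM (-0.17, limma adjusted p = 0.00264), and did not pass with knockdown (-0.09). Against the other control the overexpression call was lost (-0.09, limma adjusted p = 0.0872) and the knockdown difference passed (-0.18, limma adjusted p = 0.000896). The kinesin KIF1C rose to 10.1 FPKM with knockdown, against 3.59 FPKM (1.27), the mitotic kinesin KIF20A fell to 12.1 FPKM, against 26.9 FPKM (-1.09), and neither passed with overexpression (0.09 and 0.15), where both were lower than the other control (-0.48 and -0.28, limma adjusted p = 6.27e-07 and 0.00356). GORAB rose in both (0.20 and 0.54), DENND5A fell in both (-0.16 and -0.17), and RIC1 fell with overexpression (-0.28). With TPM scaling the overexpression calls of DENND5A (-0.13, limma adjusted p = 0.125) and RIC1 (-0.26, limma adjusted p = 0.0599) were lost, and with knockdown RIC1 passed only against the other control (0.35, limma adjusted p = 0.00243). In SK-N-BE(2) 1 rose and 8 fell with overexpression, and 5 rose and 3 fell with knockdown, where 29.7% and 55.7% of all tested genes were called. Against the other control of that line 2 rose and 5 fell with overexpression, and 4 rose and 7 fell with knockdown.

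**Figure D4:**
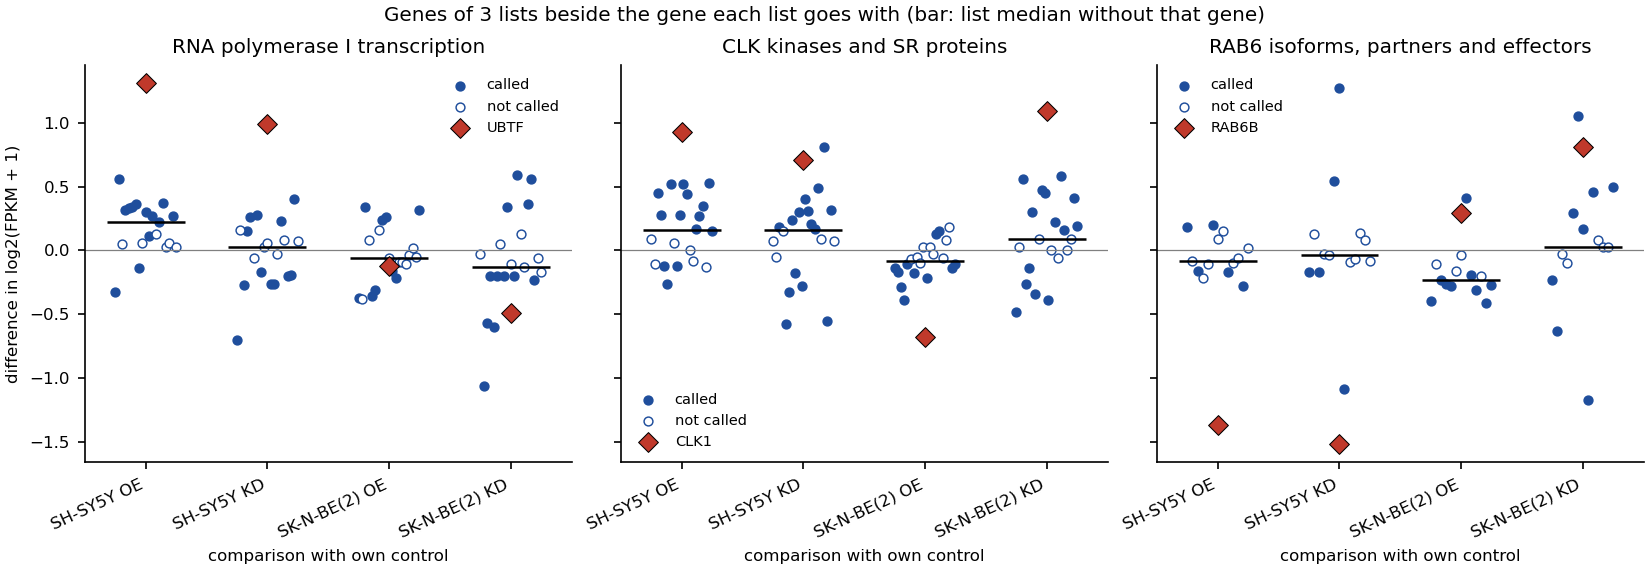
Difference in log2(FPKM + 1) from the own empty vector control of the tested genes of 3 lists (blue; filled: adjusted p under 0.05), with the member each list goes with (red diamond) and the list median without that member (bar), in the 4 comparisons (OE: overexpression; KD: knockdown). With overexpression in SH-SY5Y the median of the polymerase I list is 0.22 and that of the CLK and SR list 0.16; the members were chosen for their size in that comparison, so their distance from the lists there is no result.

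The genes whose pattern over the 8 group means was most like that of a member were sought among 13446 tested genes with a mean of at least 1 FPKM. Pearson's r on log2(FPKM + 1) is given as a description over 8 group means that share the lines and the libraries. Nearest to UBTF were BEND3 (0.974), MEPCE (0.968) and AC006504.8 (0.951), and nearest to CLK1 were ROR1-AS1 (0.960) and TFRC (0.959). Nearest to TSPEAR-AS1 was its neighbour AP001065.1 (0.990), then LYNX1 (0.987) and HES4 (0.985), while TSPEAR-AS2 had OGDHL (0.982), PPARA (0.980) and PPP2R3B (0.980). RAB6B was followed by RUNDC3B (0.985), NEDD4L (0.985) and CEP170B (0.983), and ZCCHC24 by PLEKHA2 (0.960), STON1 (0.960) and ATP2B4 (0.951). None of these genes was named for more than 1 member. MEPCE, which caps the 7SK RNA, had 22.5 FPKM in SH-SY5Y overexpression cells, against 11 FPKM in the control. The genes nearest to TSPEAR-AS2 differed less in that comparison than TSPEAR-AS2 did. OGDHL had 7.49 FPKM, against 10.3 FPKM, PPARA 2.56 FPKM, against 3.11 FPKM, and PPP2R3B 2.46 FPKM, against 3.45 FPKM. A high r over the 8 groups therefore need not mean a like response to overexpression.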

How the data were processed

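Total RNA was sequenced from SH-SY5Y and SK-N-BE(2) cells. Per the labels' protocols, RNA was extracted with TRIzol and strand-specific TruSeq libraries were read on a NovaSeq instrument. Per the submitters' processing notes, FastQC 0.11.2, STAR (no version given), StringTie 1.3.1c and the hg38 build were used. No source used here gives the annotation release or the strand setting of the counting. The values are deposited as 1 table of FPKM per gene, made by the authors, for 24 libraries. Low values were no whole multiples of a read, so depth is unknown.

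The genes reaching 1 FPKM in 3 or more libraries entered limma 3.58.1 (R 4.3.3; files read with the package data.table, version 1.17.8) on log2(FPKM + 1), in 1 fit of 8 groups with 16 residual degrees of freedom, with trend and robust options. Calls needed an adjusted p (Benjamini-Hochberg, all tested genes, two-sided) under 0.05. The fit was tested on simulated data. The members and the gene lists were chosen with earlier results of these data known. Of the chosen genes 1 is not reported here, nor are some genes beside the members. The members were tested only in the knockdown comparisons and their interaction, since the overexpression comparison had served to choose them. The choice could also rest on differences between the lines, by a measure not given, so the interaction may not be independent of it. Named beside the members were NDUFS6, up to 6 called genes per list by smallest adjusted p, the nearest tested neighbour on each side and the 3 genes of most similar pattern. The genes given one by one around TSPEAR were picked after their values were seen. Positions and exons came from GENCODE release 29 and promoter sequences from RefSeq. Alternatives were other pseudocounts, filters, scalings, groups in the fit, the other empty vector control, a replicate block and leaving out each library. Same-numbered libraries did not deviate together in 3 of the 4 construct and control pairs, and in SK-N-BE(2) overexpression only for 2 of 3 numbers, so the numbers were not taken to pair the libraries.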

Additional observations from a re-analysis of the deposited data

Results flagged for a closer look

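By the interaction test, the knockdown response differed between the lines in 5 members. These averaged at least 1 FPKM in SK-N-BE(2) knockdown cells or their control, RAB6B only with knockdown (1.48 FPKM) and TSPEAR-AS2 only in the control (1.2 FPKM). The differences (SH-SY5Y minus SK-N-BE(2), log2) were 1.48 for UBTF, -0.38 for CLK1, -0.70 for TSPEAR-AS2, -2.33 for RAB6B and 0.36 for ZCCHC24. The test was passed by 55.8% of all tested genes, a share taken without that condition on level. The choice of members may have weighed differences between the lines, so this test may not be independent of that choice. RAB6B and TSPEAR-AS2 were near or under 1 FPKM in SK-N-BE(2), which left them little room to fall there. The CLK1 difference turned to 0.58 with the other controls. With overexpression, CLK1 and RAB6B moved oppositely in the lines against their own controls, by 0.93 and -1.37 in SH-SY5Y, against -0.68 and 0.29 in SK-N-BE(2). Against the other control of SK-N-BE(2), CLK1 was 0.38, the direction of SH-SY5Y, and RAB6B lay under 1 FPKM there (0.809 FPKM, against 0.469 FPKM in its own control). The difference between lines was not tested for them because it may have served to choose them.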

How the results depend on the processing

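Of the members' knockdown results under alternatives other than leaving out a library, 122 kept their direction and side of the threshold, 4 lost their call and 2 reversed, and the cause was not tested. Against the other empty vector control, CLK1 in SK-N-BE(2) knockdown lost its call (0.03), TSPEAR-AS2 there reversed (0.30) and the CLK1 difference between lines reversed (0.58). The untested CLK1 difference in SK-N-BE(2) overexpression reversed as well (0.38). Scaled to a fixed sum (TPM), ZCCHC24 in SK-N-BE(2) knockdown lost its call (-0.05). A fit restricted to the compared groups also lost ZCCHC24 (-0.14), and TSPEAR-AS2 between lines with a pseudocount of 0.1 (-0.32). Leaving out 1 library at a time gave -0.19 to -0.11 for ZCCHC24 in SK-N-BE(2) knockdown. With a mean of at least 5 FPKM only 7219 genes were tested, and called genes apart from NDUFS6 numbered 4592, 4843 and 4573 in SH-SY5Y knockdown, SK-N-BE(2) knockdown and their difference, against 8899, 8854 and 8873. Members under that filter have no value there. TPM scaling shifted the median of all genes in the difference between lines to -0.16 and the share of calls that were higher to 30.5%, against 47.2%, with 35.7% against 47.0% in SH-SY5Y knockdown, 60.8% against 49.2% in SK-N-BE(2) knockdown and 32.2% against 43.4% in SK-N-BE(2) overexpression. Median-of-ratios scaling gave 53.8% in the last.

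The replicate numbers did not pair the libraries by the rule that every pair's correlation exceed 0.1. Correlations were -0.0325 to 0.0136 in the knockdown comparisons, 0.00251 to 0.0309 in SH-SY5Y overexpression and 0.141, 0.37 and -0.076 in SK-N-BE(2) overexpression. With the replicate block, UBTF in SH-SY5Y knockdown was 0.99 (limma adjusted p = 1.26e-13), called genes numbered 9173 there, no call of a member changed, and PPIL3 gained a call there (0.13, limma adjusted p = 0.0367).

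Of the other named genes' results under these alternatives, 546 kept direction and call, 19 lost their call, 17 gained one and 18 reversed. Most changes came with the other control or with TPM scaling, under which BZW1 (0.09) and NCL (0.05) lost their knockdown calls. Those that reversed in SH-SY5Y were as follows. Against the other control in knockdown, BZW1 was -0.02, RRN3 -0.07, NCL -0.13, SRSF6 0.00, SRSF1 -0.36, SRPRB -0.05, C21orf33 -0.03, SRSF2 -0.18, SUMO3 -0.08 and MTND6P21 0.13. Against the other control in overexpression, RUNDC3A was 0.10, KIF20A -0.28, KIF1C -0.48 and RYK -0.09. With TPM scaling in knockdown, RRN3 was -0.04, RIC1 -0.01, TAF1D -0.01 and SUMO3 -0.06. Leaving out 1 library, RRN3 ranged between -0.01 and 0.10 in knockdown, and RYK between -0.01 and 0.07 and AP001062.1 between -0.03 and 0.15 in overexpression. AP001065.2 and MTND6P21 lost their knockdown calls with a pseudocount of 0.1 (-0.61 and -0.88), so the falls of these low genes are uncertain.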
